A study of Mus musculus with 4 samples.

Results

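Cytokinesis and central spindle genes were followed in the mouse line RPP631, derived from small cell lung cancer (SCLC), as a set of 10 genes chosen by symbol among the 54232 genes of the count table. The set held Birc5, Cdca8 and Incenp of the chromosomal passenger complex, Prc1 and Racgap1 of the central spindle, Ect2, Anln and Cit of the cleavage furrow and midbody, and the spindle proteins Tpx2 and Nusap1. RNA was sequenced in bulk from cells kept for 48 h in 100 nM YKL, called a CDK7 inhibitor in the series title, or for 48 h in DMSO, the vehicle. Each group had 2 libraries, all from the same line, and the labels give no genotype for the line. Nor do they say that replicates came from different cultures, and p-values therefore cover the spread among these 4 libraries alone.

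At the end of mitosis the separating chromosomes leave behind an array of antiparallel microtubules, the central spindle, which marks where the cell will cleave. The chromosomal passenger complex, in which the kinase Aurora B is bound to INCENP, survivin (Birc5) and borealin (Cdca8), moves from centromeres to this array. PRC1 bundles its microtubules, and centralspindlin, made of RACGAP1 and the kinesin encoded by Kif23, recruits the exchange factor ECT2, which activates RhoA at the cortex. RhoA then drives the contractile ring, to which anillin (Anln) and citron kinase (Cit) bind. Transcripts of this machinery are known to accumulate in G2 and mitosis, and many of their promoters carry a cell cycle homology region (CHR) read by the DREAM and MuvB complexes.

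The libraries YKL 1 and YKL 2 had 29817387 and 32956564 counts assigned to genes, and DMSO 1 and DMSO 2 had 34189709 and 31082753. Of all genes, 16749 passed a filter on low counts and were tested, among them all 10 of the set, whose counts per library ran from 1239 to 17914. Levels are given as CPM, counts relative to a library total scaled by TMM. This scaling centres the fold changes of all genes, and a fall common to most transcripts would not show. The neuroendocrine markers of SCLC were present: all 10 listed ones passed the filter, with summed per-length levels of 6653 and 5956 TPM (counts per gene length, relative to the library) in YKL against 8388 and 7348 TPM in DMSO, and 1 of them, the lung lineage factor Nkx2-1, fell (log2 fold change -1.14 ± 0.18, edgeR adjusted p = 0.0189), a call that ended with a lone YKL library, at log2 fold changes of -1.01 and -1.28. Of 10 listed immune and stromal markers 5 passed the filter, and Cd3e had no count in any library. The summed level of the 10 was 25 and 9.57 TPM in YKL against 8.27 and 17.1 TPM in DMSO. Pdgfra and Cd68 made up most of this sum. Pdgfra had 16.5 and 6.15 TPM in YKL against 4.25 and 8.64 TPM in DMSO. Cd68 had 7.27 and 2.68 TPM in YKL against 3.86 and 7.56 TPM in DMSO. The leukocyte gene Ptprc had 25 and 23 counts in YKL against 0 and 2 in DMSO and was called higher (edgeR adjusted p = 0.0392), a call that held in 5 of 12 alternative fits. The part of such transcripts in the results was not tested.

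Promoter windows, 250 bases before to 50 bases after a start in RefSeq (GRCm38.p6), were matched for 8 of the 10 genes, and Incenp and Tpx2 were not matched. Prc1 and Ect2 have 2 windows each, of which the first listed was used, and the second held the same motifs. The RefSeq start need not be the end of the gene in the count table: that of Cdca8 lies 2394 bases and that of Cit 378 bases inside it. Shown are the windows of the 3 genes whose transcripts fell, Birc5 (chr11:117848987-117849286, plus strand), Cdca8 (chr4:124936868-124937167, minus strand) and Prc1 (chr7:80294201-80294500, plus strand), and those of Racgap1 (chr15:99651607-99651906, minus strand) and Cit (chr5:115845406-115845705, plus strand), which were not called. They are written 5′ to 3′ along the gene, and capitals mark TTTGAA or TTTAAA, both forms of the CHR, and CCAAT, the box bound by NF-Y, on either strand.
Birc5: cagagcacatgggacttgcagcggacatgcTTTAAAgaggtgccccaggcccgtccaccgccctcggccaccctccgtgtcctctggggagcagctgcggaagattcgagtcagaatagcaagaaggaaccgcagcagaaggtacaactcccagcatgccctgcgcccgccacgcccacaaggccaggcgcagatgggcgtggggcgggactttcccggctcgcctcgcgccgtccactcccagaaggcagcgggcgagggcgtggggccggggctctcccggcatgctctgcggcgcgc
Cdca8: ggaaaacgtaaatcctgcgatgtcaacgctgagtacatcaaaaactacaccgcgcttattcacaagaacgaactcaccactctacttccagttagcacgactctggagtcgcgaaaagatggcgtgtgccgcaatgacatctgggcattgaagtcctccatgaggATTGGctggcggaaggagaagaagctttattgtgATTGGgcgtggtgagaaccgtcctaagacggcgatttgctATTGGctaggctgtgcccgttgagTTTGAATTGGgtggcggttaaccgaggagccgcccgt
Prc1: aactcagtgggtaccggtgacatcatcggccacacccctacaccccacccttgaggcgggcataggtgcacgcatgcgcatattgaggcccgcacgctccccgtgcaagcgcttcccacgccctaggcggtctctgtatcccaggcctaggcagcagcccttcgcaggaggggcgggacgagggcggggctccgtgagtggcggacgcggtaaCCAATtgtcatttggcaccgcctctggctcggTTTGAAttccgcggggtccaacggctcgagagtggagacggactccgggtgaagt
Racgap1: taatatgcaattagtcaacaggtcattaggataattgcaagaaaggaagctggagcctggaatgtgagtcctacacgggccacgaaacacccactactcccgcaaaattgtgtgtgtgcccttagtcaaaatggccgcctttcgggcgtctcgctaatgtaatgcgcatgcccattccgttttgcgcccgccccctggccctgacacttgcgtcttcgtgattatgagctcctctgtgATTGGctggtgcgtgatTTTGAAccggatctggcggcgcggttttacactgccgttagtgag
Cit: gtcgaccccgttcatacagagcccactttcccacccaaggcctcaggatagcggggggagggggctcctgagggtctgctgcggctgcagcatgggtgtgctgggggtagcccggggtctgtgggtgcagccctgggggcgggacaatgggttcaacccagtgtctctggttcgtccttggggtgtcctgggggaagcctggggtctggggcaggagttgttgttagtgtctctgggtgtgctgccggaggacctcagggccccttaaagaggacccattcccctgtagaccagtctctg

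In these windows the Prc1 promoter held CCAAT with its first base 37 bases and TTTGAA with its first base 5 bases before the start. In Racgap1 the reverse complement of CCAAT began 12 bases before the start, and TTTGAA followed it, from base 6 of the transcript. Cdca8 held 4 matches to CCAAT, all on the reverse strand, the last of which overlapped the end of TTTGAA. Birc5 held neither TTTGAA nor CCAAT, and a TTTAAA that lay 220 bases before the start, whereas Cit held none of these motifs. Over the 8 windows, TTTGAA was found in 5, TTTAAA in 1 and CCAAT in 4, against 18.1%, 13.2% and 37.9% of all 27025 windows in the table. A CHR of either form together with CCAAT was found in 4 of the 8 windows and in 10.9% of all windows. Of the E2F sites searched on both strands, TTGGCGC was found in 1 window, that of Ect2, and TTCCCGC in none, against 2.54% and 4.66% of all windows. These are matches of letters and not shown sites.

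Transcripts of 3 of the 10 genes fell in YKL, namely Birc5, Prc1 and Cdca8, and none rose. The falls were 2.29-fold for Birc5, 1.96-fold for Prc1 and 1.89-fold for Cdca8. The other 7 genes were lower by 1.28-fold to 1.47-fold, values that did not pass the test. A call is a Benjamini-Hochberg adjusted p under 0.05 in edgeR's quasi-likelihood test over all 16749 genes, and 1.44% of those genes were called lower, 2.10% higher and 3.54% in either direction. None of the 10 was higher at an unadjusted p under 0.05 or by DESeq2. All 10 log2 fold changes were below 0, with a median of -0.49, against a median of -0.00014 over all tested genes, of which 50.0% were below 0. In 9 of the 10 genes both YKL libraries lay below both DMSO libraries, as in 25.3% of all genes tested, and the exception was Cit. Of the 10, 7 had an unadjusted p under 0.05, all of them lower, where 21.2% of all tested genes had one in either direction. In bulk RNA, fewer cells in G2 and mitosis and less of each transcript per cell cannot be told apart.

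**Figure D1:**
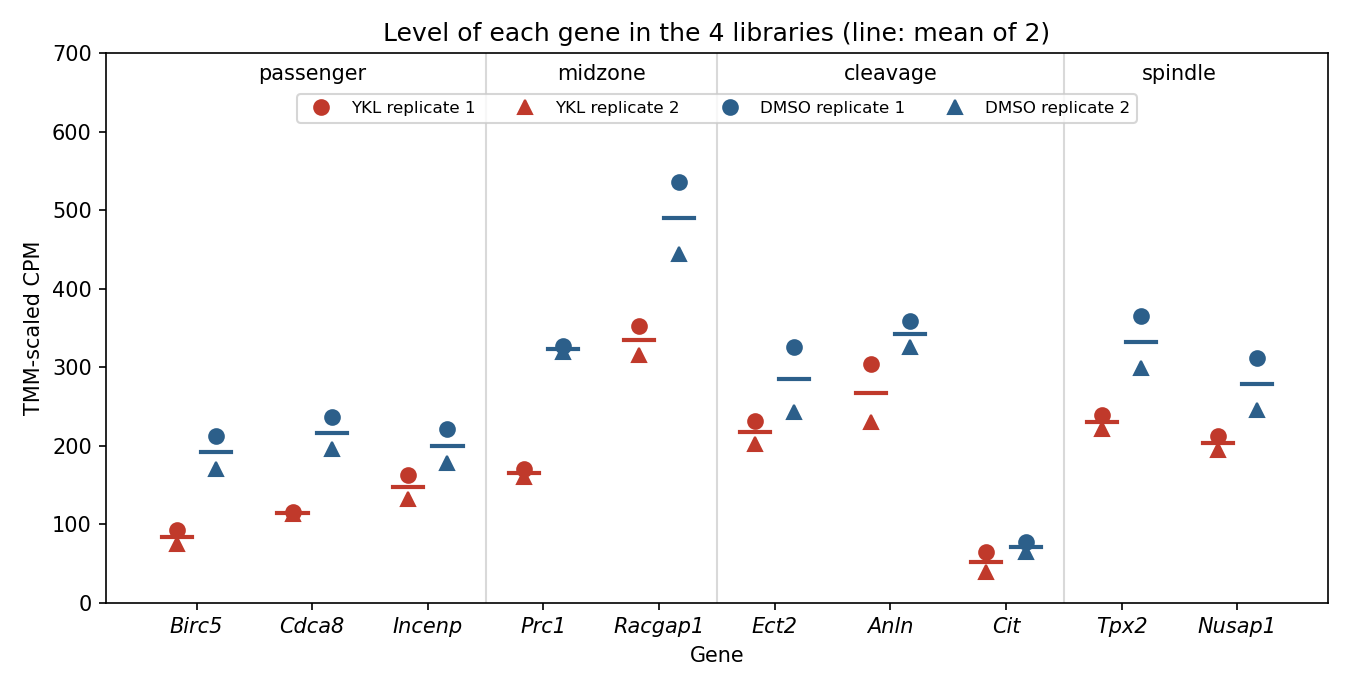
TMM-scaled CPM (vertical axis) of the 10 genes in the 2 YKL and 2 DMSO libraries, with a line at the mean of each pair and genes grouped by role. The YKL points of Birc5, Cdca8 and Prc1 lie well below their DMSO points, and those of Cit overlap, at 65.0 and 38.5 CPM in YKL and 77.1 and 64.0 CPM in DMSO.

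Within the passenger complex the 2 small subunits fell and the scaffold gene was not called. Birc5 (ENSMUSG00000017716, chr11:117849251-117855743 in mm10), which encodes survivin, the subunit that reads phosphorylated histone H3 at centromeres, had 92.3 and 74.7 CPM in YKL libraries 1 and 2 against 212 and 171 CPM in DMSO libraries 1 and 2. The higher YKL library lay below the lower DMSO library by 1.85-fold. Its mean was 83.5 ± 12.5 CPM in YKL and 191 ± 29.5 CPM in DMSO (SD, n = 2 each), a log2 fold change of -1.20 ± 0.20 (standard error, edgeR's quasi-likelihood test, adjusted p = 0.0201).

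Cdca8 (ENSMUSG00000028873, chr4:124918465-124939311), which encodes borealin, had 116 and 113 CPM in YKL against 237 and 196 CPM in DMSO. The YKL libraries were nearly equal and both lay below the lower DMSO library by at least 1.70-fold. The log2 fold change was -0.92 ± 0.18 (edgeR adjusted p = 0.0324). Of its exonic bases, 96 are shared with 9930104L06Rik on the opposite strand, a gene with 557 to 646 counts per library.

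Incenp (ENSMUSG00000024660, chr19:9872297-9899533), which encodes the scaffold that binds and activates Aurora B, had 162 and 132 CPM in YKL against 221 and 178 CPM in DMSO. The groups did not overlap, but the higher YKL library lay only 1.10-fold below the lower DMSO library. The log2 fold change of -0.44 ± 0.20 was not called (edgeR adjusted p = 0.235). Aurkb, the gene of Aurora B and no member of the set, had 96.0 ± 9.39 CPM in YKL and 197 ± 9.44 CPM in DMSO and was called lower (log2 fold change -1.03 ± 0.18, edgeR adjusted p = 0.0227).

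Ratios of per-length levels within a library do not depend on how libraries are scaled. The pairs described here were chosen after their values were seen, and with 2 libraries against 2 an exact permutation test cannot give a p under 0.333, so they are given as values. The level of Birc5 was 0.539 and 0.537 of that of Incenp in YKL, against 0.910 and 0.905 in DMSO. The replicates of each group gave almost the same ratio although the levels of both genes differed between them. The level of Cdca8 was 0.443 and 0.534 of that of Incenp in YKL, against 0.667 and 0.683 in DMSO, and that of Aurkb was 0.692 and 0.742 in YKL, against 1.01 and 1.16 in DMSO. In each of these 3 ratios the YKL libraries lay below both DMSO libraries. Levels per length use the deposited exonic gene lengths, which count all annotated exons, so the size of a ratio also depends on which isoforms the cells use.

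Of the 2 central spindle genes, 1 was called, and whether their changes differed was not tested. Prc1 (ENSMUSG00000038943, chr7:80294450-80316259), the bundler of antiparallel microtubules, had 170 and 160 CPM in YKL against 326 and 319 CPM in DMSO. Replicates of both groups lay close together and the groups were 1.87-fold apart at their nearest libraries. The log2 fold change was -0.97 ± 0.17 (edgeR adjusted p = 0.0245). Rccd1 on the opposite strand shares 911 exonic bases with Prc1, 11.1% of its length, and had 405 and 224 counts in YKL against 175 and 332 in DMSO, where Prc1 had 5220 and 5146 counts in YKL against 10922 and 10066 in DMSO.

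Racgap1 (ENSMUSG00000023015, chr15:99620496-99651656), the GTPase-activating subunit of centralspindlin, had the highest CPM of the set, with 352 and 316 CPM in YKL against 535 and 443 CPM in DMSO. The groups did not overlap and lay 1.26-fold apart at their nearest libraries. Its log2 fold change of -0.55 ± 0.19 was not called (edgeR adjusted p = 0.134). Kif23, which encodes its kinesin partner, had 124 ± 28.0 CPM in YKL and 221 ± 32.4 CPM in DMSO and missed the threshold as well (log2 fold change -0.84 ± 0.21, edgeR adjusted p = 0.0638). Per length, the level of Kif23 was 0.365 and 0.294 of that of Racgap1 in YKL, against 0.408 and 0.400 in DMSO. The level of Prc1 was 0.417 and 0.435 of that of Racgap1 in YKL, against 0.525 and 0.620 in DMSO.

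None of the 3 cleavage genes was called. Ect2 (ENSMUSG00000027699, chr3:27097222-27153878), the exchange factor that RACGAP1 recruits, had 231 and 202 CPM in YKL against 326 and 243 CPM in DMSO. The gap between the nearest libraries, 1.05-fold, was smaller than the gap between the DMSO libraries, 1.34-fold. Its log2 fold change was -0.39 ± 0.20 (edgeR adjusted p = 0.299). Per length, the level of Ect2 was 0.865 and 0.840 of that of Racgap1 in YKL, against 0.800 and 0.721 in DMSO, so here the YKL ratios were the higher ones.

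Anln (ENSMUSG00000036777, chr9:22332012-22389188), which encodes the ring scaffold anillin, had 304 and 229 CPM in YKL against 358 and 325 CPM in DMSO. The groups lay 1.07-fold apart at their nearest libraries, and the YKL libraries differed from each other by 1.33-fold. With a log2 fold change of -0.36 ± 0.20 it had the smallest change of the set (edgeR adjusted p = 0.339). Cit (ENSMUSG00000029516, chr5:115845278-116008947), the gene of the midbody kinase citron, had 65.0 and 38.5 CPM in YKL against 77.1 and 64.0 CPM in DMSO. The library YKL 1 lay above DMSO 2, and the YKL libraries differed by 1.69-fold, the widest replicate gap of the set. Its log2 fold change was -0.45 ± 0.26 (edgeR adjusted p = 0.366).

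The 2 spindle genes gave fitted values between those of the called genes and the cleavage genes, and neither was called. Nusap1 (-0.45 ± 0.19) and the cleavage gene Cit (-0.45 ± 0.26) lay within their standard errors, and the order was not tested. Tpx2 (ENSMUSG00000027469, chr2:152847964-152895321), whose product activates Aurora A and nucleates microtubules near chromosomes, had 239 and 221 CPM in YKL against 365 and 298 CPM in DMSO. The groups lay 1.25-fold apart at their nearest libraries, and the log2 fold change was -0.53 ± 0.19 (edgeR adjusted p = 0.143). Nusap1 (ENSMUSG00000027306, chr2:119618298-119651244), a microtubule-binding protein of the spindle, had 212 and 195 CPM in YKL against 312 and 245 CPM in DMSO, with a log2 fold change of -0.45 ± 0.19 (edgeR adjusted p = 0.212). Of its exonic bases 172 are shared with Oip5 on the opposite strand, which had 1013 and 1001 counts in YKL against 889 and 919 in DMSO. The level of Nusap1 per length was 1.02 and 1.02 of that of Tpx2 in YKL, against 0.985 and 0.945 in DMSO.

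**Figure D2:**
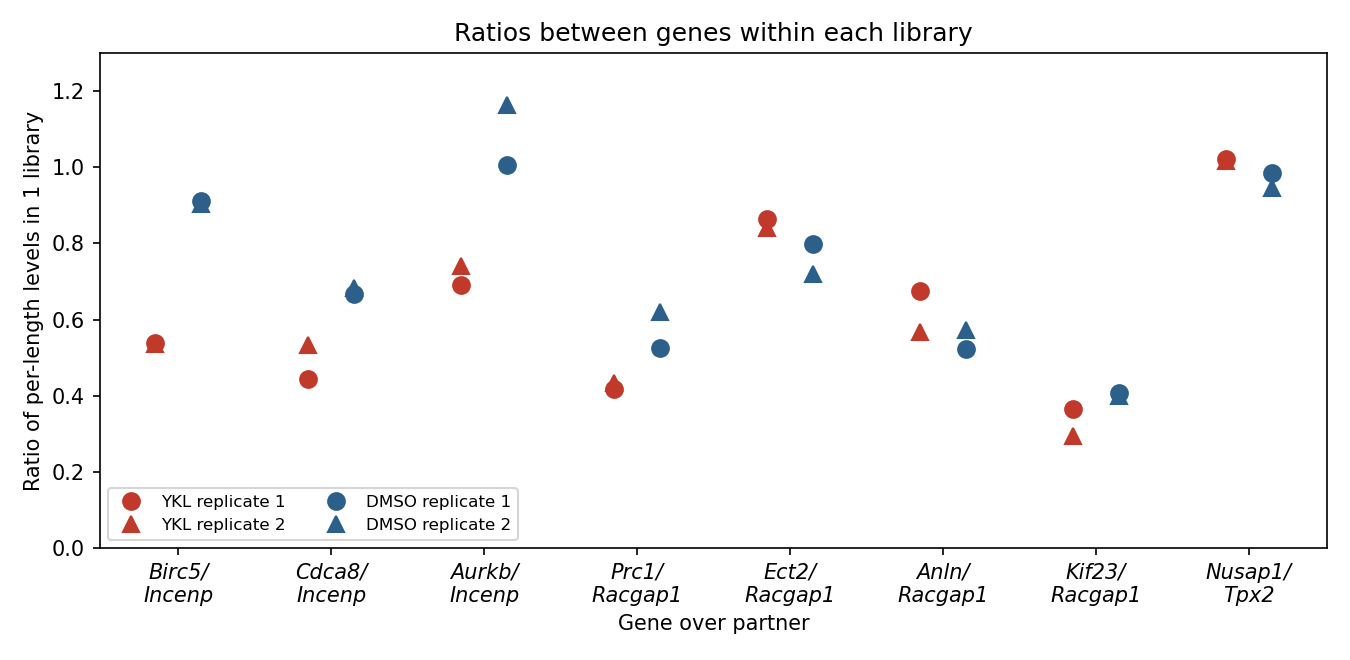
Ratios of per-length levels of 2 genes within 1 library (vertical axis) for 8 pairs, with 1 point per library and YKL left of DMSO. The ratio of Birc5 to Incenp was 0.539 and 0.537 in YKL against 0.910 and 0.905 in DMSO, while that of Anln to Racgap1 overlapped between the groups.

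The standard errors of the 10 log2 fold changes ran from 0.17 for Prc1 to 0.26 for Cit. Whether the falls of the 3 called genes differed from the changes of the other 7 was not tested. As shares of the summed counts of the 10 genes, Birc5 made up 4.75% and 4.44% in YKL against 7.15% and 6.87% in DMSO, Cdca8 5.94% and 6.72% against 7.98% and 7.89%, and Prc1 8.77% and 9.51% against 11.0% and 12.9%. Each of these shares was lower in both YKL libraries than in both DMSO libraries. Racgap1 made up 18.1% and 18.8% in YKL against 18.0% and 17.9% in DMSO, and Tpx2 12.3% and 13.1% against 12.3% and 12.0%. Anln made up 15.7% and 13.7% in YKL against 12.1% and 13.1% in DMSO. A share can be higher here while the level is lower, since all 10 levels were lower on average in YKL.

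**Figure D3:**
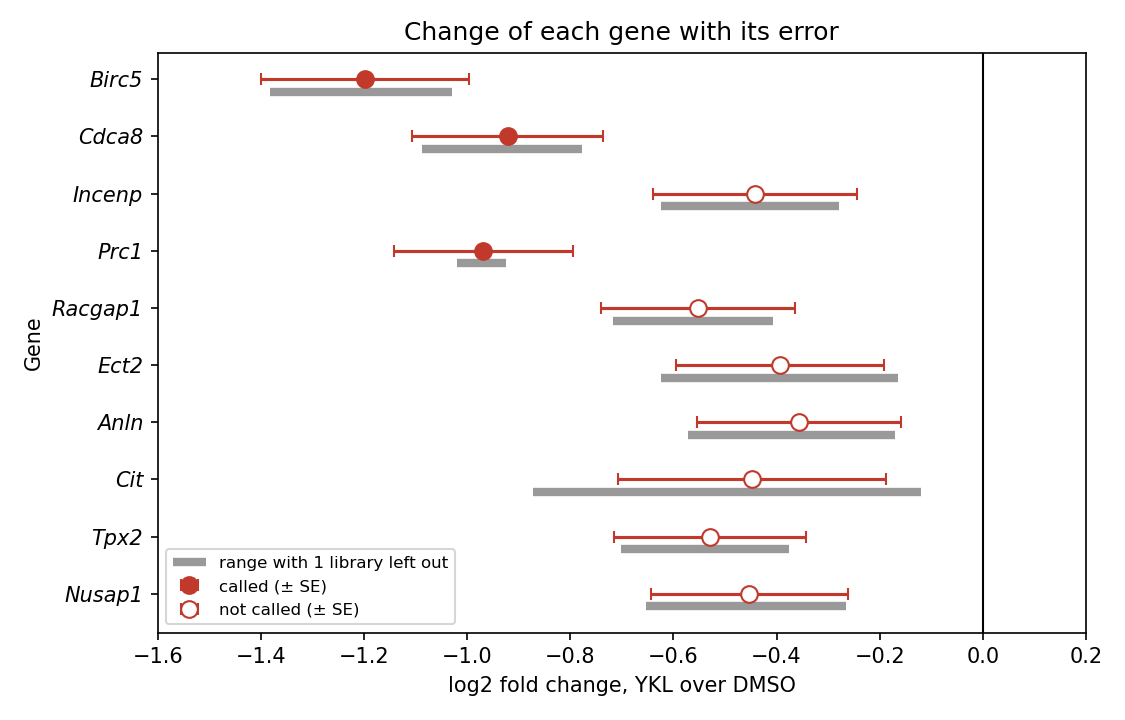
Log2 fold change of YKL over DMSO (horizontal axis) for each of the 10 genes, with its standard error and, as a grey bar, the range of values when 1 library is left out. Filled points are the 3 called genes, at -1.20 for Birc5, -0.92 for Cdca8 and -0.97 for Prc1, and every grey bar lies below 0.

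Compared per length, the order of the genes differed between the groups. In YKL the highest mean levels were those of Nusap1 (184 ± 22.9 TPM), Tpx2 (181 ± 21.7 TPM), Racgap1 (174 ± 24.2 TPM) and Incenp (168 ± 35.3 TPM), which lay within each other's spread (SD, n = 2). Ect2 (148 ± 23.7 TPM) and Anln (109 ± 28.3 TPM) followed, then Birc5 (90.5 ± 19.2 TPM), Cdca8 (81.1 ± 6.48 TPM) and Prc1 (73.8 ± 8.07 TPM), of which neighbours again did not differ beyond their spread. In DMSO, Tpx2 (263 ± 34.7 TPM), Racgap1 (257 ± 31.7 TPM), Nusap1 (255 ± 41.0 TPM) and Incenp (230 ± 32.3 TPM) were also highest. Birc5 (209 ± 30.2 TPM) and Ect2 (196 ± 38.4 TPM) were next, each with a spread that overlapped that of Incenp. Cdca8 (155 ± 19.2 TPM), Prc1 (146 ± 0.839 TPM) and Anln (140 ± 8.07 TPM) followed in DMSO. Cit was lowest in both groups, at 11.7 ± 4.94 TPM in YKL and 16.0 ± 1.94 TPM in DMSO. Birc5 thus stood below Ect2 and Anln in YKL and above both in DMSO by mean level.

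The replicates of each group were ordered alike over the set. In all 10 genes YKL 1 lay above YKL 2, by 1.02-fold to 1.69-fold, and DMSO 1 lay above DMSO 2, by 1.02-fold to 1.34-fold, an order in both groups that 25.4% of the tested genes had. The 10 genes together took 0.200% and 0.164% of all counts in YKL libraries 1 and 2, against 0.291% and 0.252% in DMSO libraries 1 and 2.

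The fits without 1 library leave that group with a lone library, which is assumed to vary like the pair of the other group, so a lost call there does not show that a fall depends on the library left out. Without YKL 1 or without YKL 2 none of the 10 genes was called by edgeR (5 and 3 had an unadjusted p under 0.05), with Birc5 at adjusted p = 0.0593 and 0.150, Prc1 at 0.137 and 0.192 and Cdca8 at 0.180 and 0.213. The log2 fold changes in these fits were -1.36 and -1.06 for Birc5, -1.01 and -0.93 for Prc1 and -0.93 and -0.91 for Cdca8. Without DMSO 2 the log2 fold changes were -0.72 for Racgap1, -0.70 for Tpx2 and -0.65 for Nusap1. Without DMSO 1 they were -0.41, -0.37 and -0.27. Cdca8 lost its call also with scaling by total count (adjusted p = 0.0506) and without the robust prior (adjusted p = 0.0560).

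The authors' deposited table of their own DESeq2 comparison placed more of these genes past the threshold. In the authors' deposited table, 7 of the 10 genes had an adjusted p under 0.05 and were lower, as were 13.9% of its 15936 genes. These were Birc5, Prc1, Cdca8, Racgap1, Tpx2, Incenp and Nusap1. Log2 fold changes in the authors' deposited table were -1.14 for Birc5, -0.94 for Prc1 and -0.88 for Cdca8, and -0.38, -0.46 and -0.36 for Ect2, Cit and Anln, whose adjusted p-values were 0.0526, 0.0936 and 0.142. The DESeq2 Wald test run here on the 4 libraries called 3 of the 10, the same genes as edgeR, with 4.63% of all tested genes called lower. The standard errors differed as well: for Racgap1 the authors' deposited table gives 0.12, and the DESeq2 fit run here gave 0.21. The cause was not tested.

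Other genes of late mitosis were set beside the 10. Of all 16749 tested genes, edgeR called 1.44% lower and 2.10% higher, and 21.2% had an unadjusted p under 0.05 in either direction. DESeq2 called 4.63% of them lower, and 824 genes higher. Of 6 tested genes for the passenger kinase and its recruitment to centromeres, 2 fell and none rose, with a median log2 fold change of -0.86. At an unadjusted p under 0.05, 4 were lower and none was higher, and DESeq2 called 3 lower. The called genes were Aurkb, given above, and Bub1. The product of Bub1 marks centromeric histone H2A for the complex, and its transcript was at 49.6 ± 17.2 CPM in YKL and 132 ± 5.88 CPM in DMSO (log2 fold change -1.41 ± 0.25, edgeR adjusted p = 0.0249). Of 6 kinesins of the midzone and of mitotic chromosomes, 2 fell and none rose, with a median of -0.87. At an unadjusted p under 0.05, 5 were lower and none was higher, and DESeq2 called 4 lower. Kif14, which encodes a partner of PRC1 and citron kinase, had 41.6 ± 8.99 CPM in YKL and 96.6 ± 8.20 CPM in DMSO (edgeR adjusted p = 0.0219). Kif20a, which encodes the kinesin that brings the passenger complex to the midzone, had 86.0 ± 13.2 CPM in YKL and 180 ± 36.3 CPM in DMSO (edgeR adjusted p = 0.0318). Per length, the level of Kif20a was 0.505 and 0.452 of that of Racgap1 in YKL, against 0.718 and 0.651 in DMSO.

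Of 26 partners in spindle assembly, 3 fell and 1 rose, with a median log2 fold change of -0.08. DESeq2 called 9 of them lower and 1 higher. Of all 16749 tested genes, edgeR called 1.44% lower and 2.10% higher, and DESeq2 called 4.63% lower and 824 genes higher. Hmmr, a spindle protein bound by TPX2, had 69.6 ± 18.4 CPM in YKL and 192 ± 6.94 CPM in DMSO (log2 fold change -1.47 ± 0.22, edgeR adjusted p = 0.0133). Kif11, the kinesin that separates spindle poles, had 155 ± 39.7 CPM in YKL and 389 ± 29.0 CPM in DMSO (edgeR adjusted p = 0.0190), and Ckap2, a microtubule-associated gene, 95.3 ± 12.4 CPM in YKL and 186 ± 31.3 CPM in DMSO (edgeR adjusted p = 0.0363). The calls of Bub1, Kif14, Kif20a and Ckap2 ended with scaling by total count, at edgeR adjusted p-values of 0.0575, 0.0506, 0.0582 and 0.0612. Those of Kif20a and Ckap2 ended without the robust prior (0.0572 and 0.0610), and that of Ckap2 with upper quartile scaling (0.0514). With a lone YKL library, where the spread comes from the DMSO pair, the calls of Aurkb, Kif20a and Ckap2 ended without YKL 1 and without YKL 2, at log2 fold changes of -1.13 and -0.94, -1.23 and -0.92, and -1.10 and -0.84. Those of Bub1, Kif14, Hmmr and Kif11 ended without YKL 2, at log2 fold changes of -1.09, -1.01, -1.22 and -1.09.

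Genes of abscission, the contractile ring and DNA replication gave no call by edgeR, which called 3.54% of all tested genes. An unadjusted p under 0.05 in either direction was reached by 21.2% of all tested genes, and DESeq2 called 4.63% of them lower. Of 20 genes of abscission, the final cut of the midbody bridge by ESCRT-III, none was called by edgeR, with a median log2 fold change of -0.15. At an unadjusted p under 0.05, 3 were lower and none was higher, and DESeq2 called 1 lower. The most abundant per length were Chmp2a, at 108 ± 16.5 CPM in YKL and 119 ± 6.64 CPM in DMSO, and Chmp5, at 141 ± 7.66 CPM in YKL and 149 ± 7.71 CPM in DMSO. Of 20 genes for RhoA, its effectors, non-muscle myosin, septins and other ring proteins, none was called by edgeR, with a median of 0.09. At an unadjusted p under 0.05, 3 were lower and 2 higher, and DESeq2 called 2 lower. Here Cfl1, which encodes cofilin, had 671 ± 103 CPM in YKL and 609 ± 37.7 CPM in DMSO, and Pfn1, which encodes profilin, 536 ± 60.2 CPM in YKL and 394 ± 7.36 CPM in DMSO. Of 20 genes of the replication fork, used as a view of S phase, none was called by edgeR and the median was 0.14. At an unadjusted p under 0.05, 1 was lower and 3 were higher, and DESeq2 called none. Pcna had 484 ± 64.9 CPM in YKL and 346 ± 22.3 CPM in DMSO, and Mcm3 343 ± 39.7 CPM in YKL and 377 ± 13.8 CPM in DMSO. The lists were not tested against each other.

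**Figure D4:**
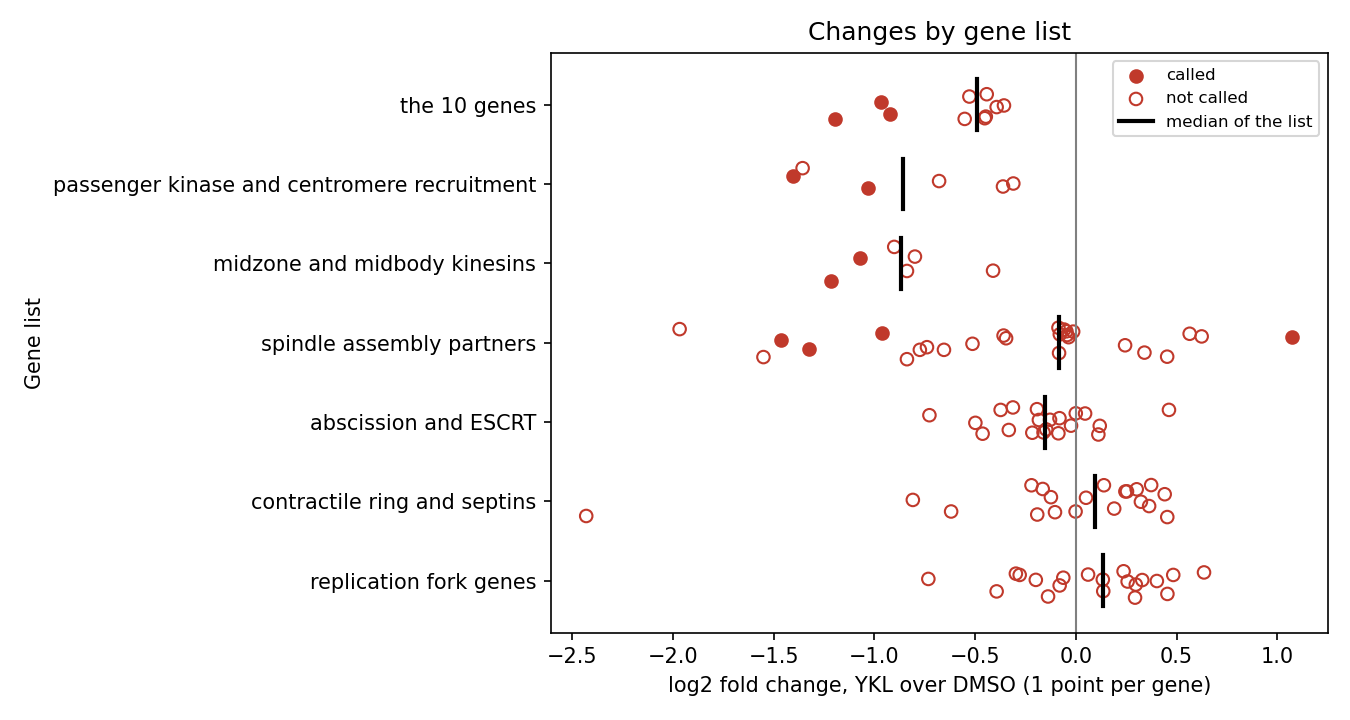
Log2 fold change of YKL over DMSO (horizontal axis) of every tested gene in the set of 10 and in 6 further lists, with filled points for called genes and a black line at each list's median. The medians are -0.49 for the 10 genes, -0.86 and -0.87 for the passenger kinase and midzone kinesin lists, and 0.14 for the replication fork genes.

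The genes most like the set over the 4 libraries lay outside these lists. Likeness was the root-mean-square distance of log2(CPM + 1), centred on its mean over the 4 libraries, to the median profile of the 10 genes, among 11234 further protein-coding genes whose mean reached 5 CPM. The nearest were Smg6, Tmem209, Ncoa6, Hp1bp3 and Brd9, at distances of 0.0102, 0.0168, 0.0221, 0.0229 and 0.0245. Their log2 fold changes ran from -0.54 to -0.59 and none was called. Within the set, Racgap1 lay nearest to the median profile, at 0.0201, and Birc5 farthest, at 0.328.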

How the data were processed

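RNA of 2 YKL and 2 DMSO libraries was measured by bulk sequencing. Per the submitters' processing notes, alignment used STAR 2.5.2b and mm10, and counting used featureCounts. The deposited counts are raw, one value per gene and library, with exon positions and a gene length. The authors also deposited a DESeq2 comparison, with a mean signal, log2 fold changes, a test score and p-values; how its libraries were filtered is not given in the sources used here. Nor is the strandedness used by featureCounts, and opposite-strand genes that overlap may share reads.

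Counts were tested with edgeR 4.0.16 in R 4.3.3 (filterByExpr with minimum count 10 and total 15, TMM, robust quasi-likelihood, 2 residual degrees of freedom, Benjamini-Hochberg over 16749 genes). Each standard error is the absolute log2 fold change over the square root of F. TPM were computed from counts and deposited lengths. Library totals ran from 29817387 to 34189709, and intervals cover the spread between libraries only. The 13 alternatives included DESeq2 1.42.0. Positions of 9 of the 10 genes equal those of GENCODE M21. The procedure was tested on simulated data.

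The members, lists and tests were chosen with earlier results of these data known. Named were all members, for each list the called genes of smallest p (at most 3, plus 1 of the rarer direction) or, with no call, the 2 highest per length, and the 5 genes nearest in profile. Kif23 and the ratios were chosen after their values were seen.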

Additional observations from a re-analysis of the deposited data

How the results depend on the processing

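All 10 genes kept a log2 fold change below 0 under each of the 13 alternatives. With 1 library left out, 0 to 6 of the 10 were called, and with each other alternative 2 or 3. The number of all tested genes called, 593, was 169 with total count scaling, 331 with upper quartile scaling, 1740 without the filter, 1387 with the replicate number as a block, 236 without the robust prior, 1599 by DESeq2, and 71 to 2453 with 1 library left out, where the spread comes from the group that kept both libraries. The cause was not tested. With the replicate block the same 3 of the 10 genes were called. Same-numbered libraries deviated together only weakly (correlation of 0.152 across genes, 2 pairs), and the labels give no pairing. Among named genes that were not called, the direction turned for Cfl1 without YKL replicate 2 (from -0.029 to 0.29 over the fits with 1 library left out) and for Chmp2a without YKL replicate 1 (from -0.31 to 0.0047). With 2 libraries per group and standard errors from 0.17 to 0.26, a 1.28-fold to 1.47-fold difference was not called in these data, which does not show that it is absent.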

Other observations

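The 8 subunits of augmin, the complex that branches spindle microtubules and is listed among the spindle assembly partners, included 1 called gene. Haus4 was called higher in YKL, at 62.5 ± 2.89 CPM in YKL and 29.7 ± 3.54 CPM in DMSO (SD, n = 2 each, log2 fold change 1.07 ± 0.20, edgeR adjusted p = 0.0260), where 2.10% of all tested genes were called higher. With a lone YKL library its call ended (edgeR adjusted p = 0.138 and 0.109), at log2 fold changes of 1.03 and 1.12. The other 7 subunits, named after their values were seen, were not called, with log2 fold changes from -0.05 for Haus3 to 0.62 for Haus5. Haus8 had 156 ± 26.2 CPM in YKL and 106 ± 3.88 CPM in DMSO (edgeR adjusted p = 0.130).

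Among the spindle assembly partners, Kif15 and Aspm had larger fitted changes than the called genes of that list but were not called. Kif15, a mitotic kinesin bound by TPX2, had 1046 and 398 counts in YKL against 3118 and 2792 in DMSO, a log2 fold change of -1.97 ± 0.50 that was not called (edgeR adjusted p = 0.116). Aspm, a spindle pole gene, had 2392 and 1310 counts in YKL against 7030 and 4344 in DMSO (log2 fold change -1.55 ± 0.36, edgeR adjusted p = 0.0814). Both were named after their values were seen.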
